A study of Mus musculus with 71 samples.

Results

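The comparison described here sets γδ intraepithelial lymphocytes (IELs) of the ileum against those of the jejunum in wild-type (WT) mice, and it rests on 4 ileal and 4 jejunal bulk RNA-seq libraries out of 71 samples in the series. The libraries were chosen by their labels alone. The mice of these libraries were C57BL/6, 10 weeks of age by the labels, with no engineered allele or treatment named, and the study's methods describe them as cohoused female littermates of the Btnl2-KO mice. Cells were sorted as CD45+TCRβ-TCRγδ+ from the epithelial fraction, and each library came from a pool of 2 mice. The small intestine had been cut into 3 equal segments, so that ileum and jejunum here mean the distal and the middle segment. The labels tie no ileal library to a jejunal one, so whether both segments of a mouse entered could not be checked. WT duodenal IEL libraries (4), Btnl2-KO IEL libraries (3 ileal, 4 jejunal, from mice with a LacZ knock-in that disrupts Btnl2) and WT epithelial cell (IEC) libraries (2 ileal, 3 jejunal) served for comparison. The duodenal and KO libraries are also labelled 10 weeks, but the IEC libraries are labelled 7 weeks, so that levels in IECs and IELs come from mice of different age. WT γδ IELs pooled by segment were also sequenced as 1 single-cell library each, labelled 8 to 10 weeks. The study's methods describe these cells as the part of each sorted sample that was not used for bulk sequencing. By that account the single-cell libraries share mice with the bulk libraries and are no independent replicate, although the age labels differ.

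γδ IELs sit between the epithelial cells of the gut, held there by the integrin αE (Itgae) binding to epithelial E-cadherin, and they carry a cytolytic program of granzymes, perforin and Fas ligand. The epithelium around them changes along the gut. The jejunum absorbs lipids and sugars and metabolizes xenobiotics, while the ileum takes up bile acids through Slc10a2, carries them through the cell on the binding protein Fabp6 and exports them through Slc51a and Slc51b. Paneth cells secrete α-defensins and lysozyme at the crypt base, and goblet cells secrete mucus.

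Total counts ran from 15144045 to 18519614 in the ileal and from 18034702 to 30029485 in the jejunal libraries. Levels below are in CPM, the usual unit of a gene's counts relative to the library total, with library totals scaled by the trimmed mean of M values (TMM), listed in the order of the replicate numbers. The lymphocyte identity showed in Cd3e, the CD3ε chain of the receptor complex, which lay at 1901, 1524, 2002 and 1688 CPM in the jejunal and at 1603, 876, 944 and 1260.3 CPM in the ileal libraries. It was called lower in ileum (log2 fold change -0.60 ± 0.20, adjusted p = 0.0432, edgeR quasi-likelihood test), and no longer with the pan-epithelial covariate described below (log2 fold change -0.29, edgeR adjusted p = 0.169) or with a trend on transcript length taken out (-0.58, edgeR adjusted p = 0.0615). The CD8α gene Cd8a (1768 to 2611 CPM in jejunum, 1501 to 2090.1 CPM in ileum) and the granzyme B gene Gzmb (8181 to 14402 CPM and 5199.5 to 10928 CPM) overlapped between segments. Neither passed the test, with log2 fold changes of -0.17 for Cd8a (edgeR quasi-likelihood test, adjusted p = 0.477) and -0.25 for Gzmb (adjusted p = 0.507). The lineage genes Cd3d (log2 fold change 0.41), Cd3g (0.28), Ccl5 (0.40), Gzma (0.20) and Cd160 (0.13) leaned higher in ileum without a call. With the covariate Cd3d was called higher (0.61, edgeR adjusted p = 0.0095). The CD3 chains thus did not move together. Itgae was called lower, as described below. Most gene segments of the γ and δ receptor chains were not analysed here.

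Of 12643 genes tested, 1369 (10.8%) were higher and 1379 (10.9%) were lower in ileum at an adjusted p under 0.05 and a fold change above 1.5, together 21.7%. The 4 ileal values all lay above the 4 jejunal values for 1051 of the called higher genes and all below them for 1226 of the called lower genes. Over all tested genes 14.6% were separated upward and 17.3% downward. The median log2 fold change over all tested genes was 0.00 with TMM and -0.19 with scaling by library size alone, under which 717 genes were higher and 2585 lower. Of the called genes, 435 higher and 370 lower ones were more abundant in the IEC than in the IEL libraries, a comparison across tables normalized separately.

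Epithelial genes that mark gut position were among those with the largest differences. The 12 non-overlapping higher genes of greatest change were Hoxb9, Fabp6, Hoxb7, Defa32, Slc10a2, Thbs1, Sval1, Defa33, Ddah1, Retnlb, Defa35 and Bex1. Fabp6, the ileal bile acid binding protein (chromosome 11 from 43596040 to 43601562, GRCm38), lay at 412, 632, 583 and 328 CPM in the ileal libraries and at 2.14, 2.04, 0.631 and 4.43 CPM in the jejunal ones. The groups were far apart, with a log2 fold change of 7.71 ± 0.49 (SE, 4 against 4 libraries, edgeR adjusted p = 0.000188). The 250 bases before its annotated start are shown because they hold an inverted repeat of the kind bound by the bile acid receptor FXR (Nr1h4), given in capitals (RefSeq, GRCm38.p6, minus strand, chr11:43601563-43601812, 5′ to 3′).
Fabp6: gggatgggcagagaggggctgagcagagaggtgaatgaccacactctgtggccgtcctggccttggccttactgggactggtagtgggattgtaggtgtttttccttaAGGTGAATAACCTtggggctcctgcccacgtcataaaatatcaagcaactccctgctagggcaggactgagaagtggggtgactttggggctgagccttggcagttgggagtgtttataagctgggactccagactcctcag
The pattern searched was AGGTNA followed, after 1 further base, by its reverse complement TNACCT, on both strands, and it occurred in the same window for 6 of 27025 genes with a promoter in the table (0.0222%) and for 1 of the 5 tested bile acid genes that had one. The match is a description of the sequence only.

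Of the 6 tested genes of ileal bile acid handling, 5 were higher in ileum (background 10.8%), with a median log2 fold change of 2.15. Slc10a2, the apical bile acid transporter, lay at 0.678, 2.37, 1.77 and 0.919 CPM in ileum and at 0, 0.0304, 0 and 0.0868 CPM in jejunum. Slc51b, a subunit of the basolateral exporter, lay at 10.4 to 23.2 CPM in ileum and at 1.93 to 5.71 CPM in jejunum (log2 fold change 2.29 ± 0.40, adjusted p = 0.00364). Nr1h4 lay at 9.86 to 38.9 CPM in ileum and at 4.61 to 11.3 CPM in jejunum, so its groups overlapped although it was called (log2 fold change 1.88 ± 0.40, adjusted p = 0.00713). Fgf15, the ileal hormone that FXR induces, was not called (log2 fold change 2.02, adjusted p = 0.218). Posterior homeobox genes, which pattern the body axis, were also higher. Hoxb9 had no count in any jejunal library and lay at 0.7395, 2.82, 4.97 and 5.92 CPM in the ileal ones, at least 27.6-fold higher against a floor of 3 counts per library. Hoxb7 lay at 1.79 to 7.12 CPM in ileum and had counts in 1 jejunal library, at 0.304 CPM.

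Genes of proximal enterocytes were lower in ileum. Cyp2b10, a xenobiotic-metabolizing cytochrome P450, lay at 5.91, 9.45, 4.52 and 12.1 CPM in jejunum and had no count in the ileal libraries, at least 40.8-fold lower against the same floor. Slc2a2, the basolateral glucose and fructose transporter, lay at 1.57, 6.99, 1.89 and 2.995 CPM in jejunum and likewise had no ileal count, at least 17.2-fold lower. Ugt1a9, a glucuronosyltransferase, was at least 4.48-fold lower on the same terms. The other genes among the 12 with the greatest change on this side were Gm10052, Cyp3a11, G6pc, Lct, Mme, Fabp1, Apoa4, Cyp2c66 and an identifier without a symbol. Fabp1, the liver-type fatty acid binding protein, lay at 29.2, 82.2, 36.3 and 62.1 CPM in jejunum and at 0.7395, 1.71, 0.408 and 0.862 CPM in ileum (log2 fold change -5.84 ± 0.46, adjusted p = 0.000752). Of 10 proximal enterocyte genes 9 were lower (background 10.9%), and the exception, higher in ileum, was Slc40a1, the iron exporter (log2 fold change 2.63). Of 12 general enterocyte genes 7 were lower (background 10.9%) and 0 higher. Of the 7 lower genes 2 (Fabp1 and Lct) were also on the proximal list.

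**Figure D1:**
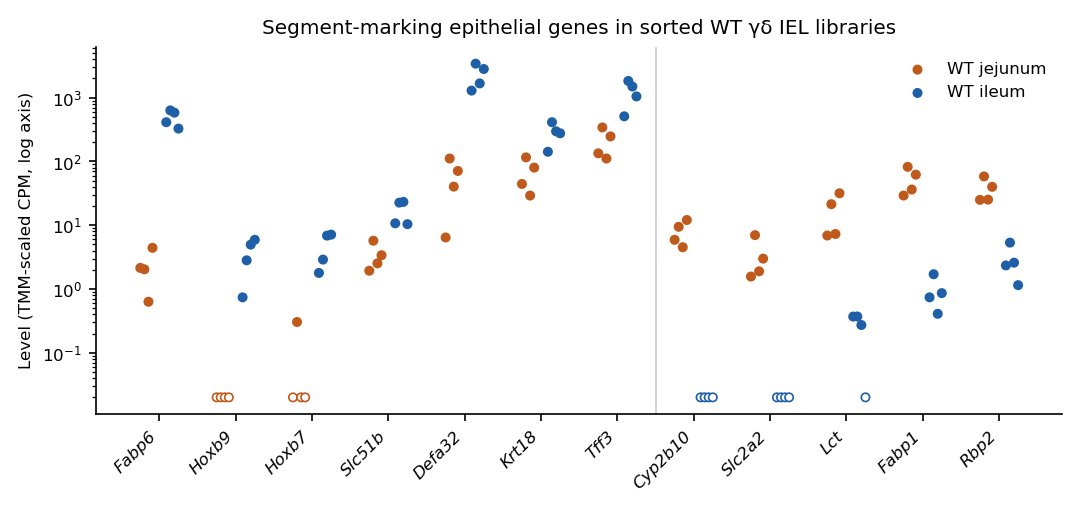
Levels of epithelial genes in the 4 WT jejunal and 4 WT ileal γδ IEL libraries, in TMM-scaled CPM on a log axis, each point 1 library and open points at the bottom edge libraries with no count. Fabp6 sits between 328 and 632 CPM in ileum and at 4.43 CPM or less in jejunum, and Cyp2b10 has points above 0 in jejunum only.

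Secretory lineage genes were higher in ileum as groups. All 7 Paneth cell genes and all 7 goblet cell genes tested were called higher (background 10.8%), with median log2 fold changes of 2.77 and 2.46 against 0.00 over all genes. Among 23 tested α-defensins, the antimicrobial peptides of Paneth cells, 20 were higher (background 10.8%) and 0 lower, with a median of 2.97. Defa32 lay at 1291, 3412, 1675 and 2817 CPM in ileum and at 6.43, 111, 40.3 and 70.98 CPM in jejunum (log2 fold change 5.33 ± 0.75, adjusted p = 0.00311). The α-defensins form a family of related genes, and single values are uncertain where the counting could split reads between members. Tff3, a goblet cell peptide, lay at 511 to 1828 CPM in ileum and at 111 to 342 CPM in jejunum. Of 12 pan-epithelial genes 5 were higher (Krt8, Krt18, Krt19, Cldn3 and Lgals4, background 10.8%) and 1 lower (background 10.9%). The lower one was the E-cadherin gene Cdh1 (412 to 455 CPM in jejunum, 228 to 294 CPM in ileum, log2 fold change -0.71 ± 0.12, adjusted p = 0.00325). A per-library trend on transcript length was also taken out, as described below. In that fit 3 Paneth, 6 goblet, 12 α-defensin and 1 pan-epithelial genes were called higher (background 7.82%), and Cdh1 was not called.

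Summed over lists, markers of other cells differed by segment. The α-defensins summed to 1851 to 16558 CPM in jejunum and 32354 to 118414 CPM in ileum, an 8.502-fold ratio of means. Without jejunal library 4 this ratio was 14.3 and that of the Paneth sum 8.95. In the IEC libraries, scaled separately, the mean α-defensin sum was 10811 CPM in jejunum and 10257 CPM in ileum, beside 7491 and 63690 CPM in the IEL libraries. The mean Paneth sum was 10366 and 13978 CPM in IECs, beside 3938 and 22922 CPM in IELs. The cause was not tested. The goblet (4.65-fold), Paneth (5.82-fold), bile acid (15.2-fold) and α-defensin sums were higher, and the proximal enterocyte (ratio 0.193) and mast cell (ratio 0.4798) sums lower, in every ileal library than in any jejunal one (exact two-sided permutation p = 0.0286 each, the smallest that 4 against 4 allow, adjusted p = 0.0667 over 14 lists, which misses 0.05). Most of the mast cell sum (177 to 212 CPM in jejunum and 70.7 to 113 CPM in ileum) was Kit (143 to 202 CPM and 54.5 to 110.5 CPM), the 1 called gene of that list, and averaged over members on a log scale the ratio was 0.743 (exact permutation p = 0.314). The bile acid ratio was 4.24 on that scale. The pan-epithelial sum was 1.99 times as high in ileum with overlapping ranges (2127 to 5676 CPM in jejunum and 3579 to 9347 CPM in ileum, exact permutation p = 0.0857). Ranges overlapped for B and plasma cell (122 to 135 CPM and 102 to 153 CPM), myeloid, αβ T cell, red blood cell, enteroendocrine, stromal and general enterocyte genes. Only 2 of the 6 αβ T cell genes had values, and they summed to 1.17 to 1.98 CPM in jejunum and 0.801 to 4.375 CPM in ileum. That overlap therefore cannot show whether αβ T cells were alike between segments. Fcgr1 and S100a8 of the myeloid, Cma1 of the mast cell and Myh11 of the stromal list had no count in any of the 8 libraries. In bulk libraries fewer cells of a type and less RNA per cell cannot be told apart. With the pan-epithelial level as a covariate, 817 of the 1369 higher and 778 of the 1379 lower genes were called again.

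A second property of the libraries moved with segment. Genes were divided into sixths by the length of their longest annotated transcript. In the shortest sixth (174 to 1752 nucleotides) 31.8% of genes were called higher and 1.02% lower in ileum. In the fifth of these classes, which ends at 5522 nucleotides, 4.72% were higher and 21.6% lower. The balance of a library, the median log2 deviation of its shortest sixth minus that of its longest, lay between -0.47 and -0.22 in the jejunal and between 0.10 and 0.26 in the ileal WT libraries (exact two-sided permutation p = 0.0286). WT duodenal libraries lay between -0.01 and 0.32. All 76 cytosolic ribosomal protein genes, whose transcripts are short, were called higher in ileum (background 10.8%), with a median log2 fold change of 0.87. They were looked at after their values were seen. In the single-cell sums 46 were higher (background 47.4%) and 30 lower (background 52.6%), with a median of 0.02. With the length trend of each library taken out, 989 genes (7.82%) were higher and 676 (5.35%) lower. These included 711 and 619 of the original calls. Of the 76 ribosomal protein genes 20 were called higher in that fit (background 7.82%), with a median log2 fold change of 0.32. The part of this trend in each gene's difference was not tested beyond that fit.

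**Figure D2:**
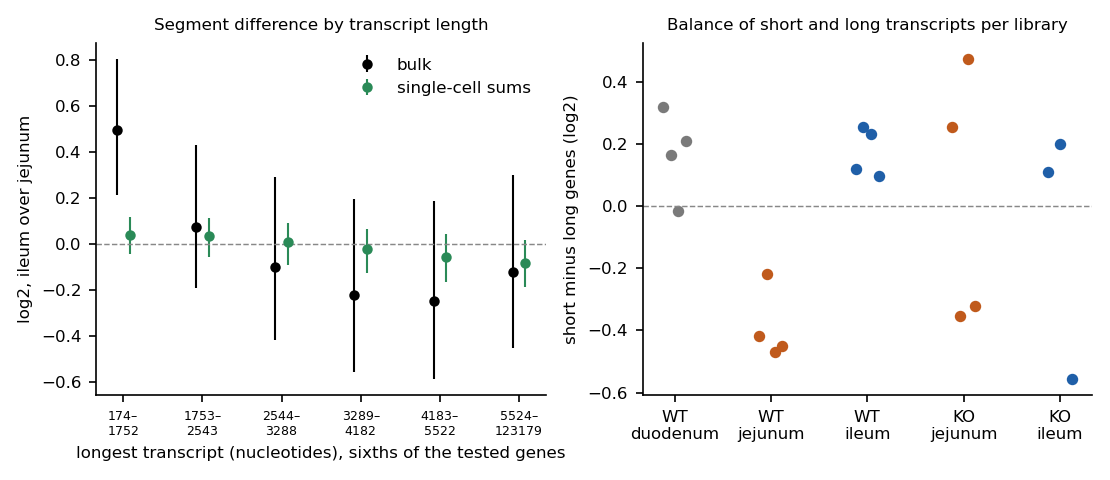
Left, median (points) and quartiles (bars) of the log2 ratio of ileum over jejunum by sixths of transcript length, in the bulk fit and in the single-cell sums. Right, the short-minus-long balance of each IEL library in log2 units, in which every WT jejunal library lies below every WT ileal one.

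The single-cell libraries held 3712 ileal and 3589 jejunal cells after the study's filters, with medians of 5041 and 4959 unique molecular identifiers (UMIs) per cell, and 19 barcodes occurred in both. Each segment is 1 library, so ratios carry no test, and levels, given as CPM of all UMIs with their 95% Poisson interval in brackets, cover counting error only. Among 9511 tested genes with at least 50 UMIs in a segment, 3.24% differed by more than 1.5-fold. Of the called bulk genes more abundant in IELs than in IECs, 539 of 759 higher ones lay on the same side in the cells (background 47.4%) and 702 of 949 lower ones did (background 52.6%). The medians of their single-cell log2 ratios were 0.05 and -0.08, and 37 and 11 of them passed 1.5-fold in that direction. Of the called genes more abundant in IECs, 122 of 253 higher ones (background 47.4%) and 189 of 290 lower ones (background 52.6%) lay on the same side. The single-cell ratios also fell with transcript length, from a median of 0.04 in the shortest sixth to -0.08 in the longest. The backgrounds cover genes of all lengths, and the part of this trend in the shares was not tested.

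Receptor signaling genes were on the lower side in the bulk libraries. Of 16 adaptors and proximal kinases 6 were lower (background 10.9%) and 0 higher, among them Lcp2, Txk, Vav1, Plcg1 and Plcg2, and the list median was -0.25. Plcg1, a phospholipase downstream of the T cell receptor, lay at 118, 83.3, 123 and 117 CPM in jejunum and at 53.5, 26.6, 31.7 and 54.4 CPM in ileum (log2 fold change -1.41 ± 0.24, adjusted p = 0.00342). The groups did not overlap. Lcp2, an adaptor of the same cascade, lay at 469, 390.4, 474 and 394 CPM in jejunum and at 312, 225, 253 and 295 CPM in ileum, also without overlap (log2 fold change -0.67 ± 0.13, adjusted p = 0.00551). In the single-cell sums the log2 ratios were -0.04 for Plcg1 (1015 ileal and 968 jejunal UMIs) and -0.01 for Lcp2 (4680 and 4383 UMIs), and the list median was -0.03. With the length trend taken out Plcg1 was called again, Lcp2, Txk, Vav1 and Plcg2 were not, and Fcer1g was called lower. With the covariate Lcp2 and Plcg2 were not called.

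Some cytotoxic and retention genes were lower in the bulk libraries. Itgae, the integrin subunit that tethers IELs, lay at 2326, 1775, 2413 and 2109 CPM in jejunum and at 1484, 833, 972 and 1360 CPM in ileum without overlap (log2 fold change -0.89 ± 0.21, adjusted p = 0.0093). Of 23 homing and retention genes 5 were lower (background 10.9%) and 0 higher, Itgae with its collagen-binding relative Itga1, the chemokine receptor Ccr9 and the receptors Gpr55 and Gpr34. Ccr9, which guides lymphocytes to the small intestine, lay at 437 to 518 CPM in jejunum and at 251 to 364 CPM in ileum (log2 fold change -0.65 ± 0.13, adjusted p = 0.00576). Of 14 cytolytic genes 4 were lower (background 10.9%), 0 higher and 10 not called. The lower ones were the perforin gene Prf1 (log2 fold change -0.68), the Fas ligand gene Fasl (-0.72), the TRAIL gene Tnfsf10 (-0.74) and the granzyme inhibitor gene Serpinb9 (-0.67). The single-cell log2 ratios were smaller, at -0.09 for Itgae, -0.03 for Ccr9, 0.00 for Prf1 and -0.29 for Fasl. Over the homing and retention list the cells went the other way, with 12 of 17 measured genes higher in ileum (background 47.4%) and a median of 0.12. Over the cytolytic list 6 were higher (background 47.4%) and 7 lower (background 52.6%), with a median of 0.00. With the covariate Itgae, Ccr9, Prf1, Fasl and Tnfsf10 were not called, Itgae at a log2 fold change of -0.58 (edgeR adjusted p = 0.0181) that falls short of the 1.5-fold minimum. Ccr9, Tnfsf10 and Serpinb9 were not called once the length trend was taken out.

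Cytokine receptors held the largest difference among the lymphocyte gene lists on the lower side. Il12rb2, the signaling chain of the interleukin-12 receptor, lay at 47.9, 35.99, 46.6 and 50.1 CPM in jejunum and at 13.4, 7.64, 9.05 and 19.1 CPM in ileum (log2 fold change -1.87 ± 0.26, adjusted p = 0.00311). Every jejunal library was above every ileal one, whereas the single-cell sums were 686 UMIs in ileum and 733 in jejunum, or 33.4 CPM (30.9 to 36) and 38.5 CPM (35.8 to 41.4). Of 22 tested cytokine receptors 7 were lower (background 10.9%), namely Il2rb, Il12rb1, Il12rb2, Il4ra, Il6st, Tgfbr2 and Tgfbr3, and the list median was -0.45. With the length trend taken out 4 were lower (background 5.35%) and 2 higher (background 7.82%). In the cells 10 were higher (background 47.4%) and 9 lower (background 52.6%), with a median log2 ratio of 0.04. Tgfbr2, a chain of the TGF-β receptor, lay at 259.8, 180.1, 256 and 209 CPM in jejunum and at 121, 98.2, 106 and 146 CPM in ileum (log2 fold change -0.94 ± 0.16, adjusted p = 0.00342). The 1 receptor called higher was Il18rap, a chain of the interleukin-18 receptor, at 1.41, 1.31, 1.84 and 2.13 CPM in jejunum and 2.65, 4.597, 4.49 and 6.32 CPM in ileum (log2 fold change 1.43 ± 0.33, adjusted p = 0.0092).

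Among the 12 lower genes with the greatest change that were more abundant in IELs than in IECs, Il12rb2 stood with Pik3ap1, an adaptor of PI3-kinase, Il1rl2, the interleukin-36 receptor, Mob1a, a regulator of the Hippo pathway, the guanylate-binding protein gene Gbp10, and Dzank1, Slc28a2b, Gm38431, 9930111J21Rik2, Zfp169, Nrcam and Evi2. Their log2 fold changes were -2.95 to -1.70. Dzank1 and Slc28a2b stayed under 1 CPM in all libraries. Pik3ap1 lay at 74.7, 49.9, 84.99 and 72.9 CPM in jejunum and at 22.6, 10.01, 14.2 and 38.3 CPM in ileum (log2 fold change -1.72 ± 0.36, adjusted p = 0.00626), with a single-cell log2 ratio of -0.20. Mob1a lay at 57.6 to 80.2 CPM in jejunum and 7.93 to 42.7 CPM in ileum, with 710 jejunal and 774 ileal UMIs in the cells. The corresponding 12 higher genes were Hoxb7, Bex1, Nupr1, Sval1, ccdc198, the goblet cell gene Retnlb and 6 α-defensins.

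Transcription factors went both ways. Of 27 tested, 6 were lower (Tbx21, Ahr, Tcf7, Ikzf3, Prdm1 and Hic1, background 10.9%) and 3 higher (Id3, Maf and Batf3, background 10.8%). Once the length trend was taken out, 2 were lower (background 5.35%) and 1 higher (background 7.82%). Tcf7, which encodes the Wnt-responsive factor TCF-1, lay at 138, 128, 119 and 133 CPM in jejunum and at 78.6, 54.3, 59.7 and 98.5 CPM in ileum (log2 fold change -0.83 ± 0.17, adjusted p = 0.00657). The cells held 1156 jejunal and 1636 ileal UMIs of it, a log2 ratio of 0.39 in the opposite direction. Ahr, the aryl hydrocarbon receptor on which IELs depend, lay at 30.8 to 44.8 CPM in jejunum and 21.2 to 26.9 CPM in ileum. Its partner Arnt and its repressor Ahrr were lower too, 3 of 5 tested genes of that pathway (background 10.9%). The single-cell log2 ratio of Ahr was 0.04. Id3, an inhibitor of E proteins, lay at 56.4 to 95.8 CPM in jejunum and at 89.7 to 157 CPM in ileum (log2 fold change 0.77 ± 0.20, adjusted p = 0.0149), and the cells gave a log2 ratio of 0.34. Batf3, an AP-1 family factor, was higher by a log2 fold change of 1.04, with 273 ileal and 134 jejunal UMIs. Maf lay at 1.10 to 1.73 CPM in jejunum and 1.67 to 6.82 CPM in ileum, so its groups overlapped. The level of Maf in ileal IECs was 17.7 times that in ileal IELs, and the cells held 40 ileal and 38 jejunal UMIs. Id3, Batf3, Ahr and Ikzf3 were called neither with the length trend taken out nor with the pan-epithelial covariate, which also ended the calls of Tbx21 and Maf. Id3 had log2 fold changes of 0.33 (edgeR adjusted p = 0.18) and 0.39 (edgeR adjusted p = 0.0641) in those fits, and Batf3 0.53 (edgeR adjusted p = 0.288) and 0.81 (edgeR adjusted p = 0.149).

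A small group of surface receptors was higher in ileum in both kinds of library. Ly6a, the lymphocyte antigen Sca-1, lay at 8.31, 6.63, 8.45 and 4.12 CPM in jejunum and at 23.4, 15.4, 23.01 and 30.3 CPM in ileum (log2 fold change 1.75 ± 0.27, adjusted p = 0.00321). The groups did not overlap, and the cells held 222 ileal and 90 jejunal UMIs, or 10.8 CPM (9.44 to 12.3) and 4.73 CPM (3.8 to 5.81). Klra7, a receptor of the Ly49 family, lay at 7.37, 5.53, 7.62 and 5.47 CPM in jejunum and at 14.5, 10.3, 22.5 and 9.99 CPM in ileum (log2 fold change 1.14 ± 0.28, adjusted p = 0.0125), and its reads may be shared with paralogs. Klrk1, the activating receptor NKG2D, was called just inside the threshold (log2 fold change 0.88, adjusted p = 0.0495), at 19.03, 7.42, 8.84 and 7.51 CPM in jejunum and 18.4, 15.9, 25.3 and 18.9 CPM in ileum, so that the first jejunal library lay inside the ileal range. In the cells Klra7 had 202 ileal and 72 jejunal UMIs and Klrk1 had 229 and 81. The adhesion receptor Cd2 (log2 fold change 0.86) and the surface antigen Thy1 (0.72) were higher as well, with single-cell log2 ratios of 0.89 and 0.25. Of 21 tested NK cell receptors 2 were higher (background 10.8%), and the other 19 were not called. Of 18 tested T cell surface genes 3 were higher (Ly6a, Cd2 and Thy1, background 10.8%) and 2 lower (background 10.9%). The lower ones were Cd38 (log2 fold change -0.66) and Cd101 (-0.65), with single-cell log2 ratios of -0.06 and 0.02. With the length trend taken out Ly6a, Klrk1 and Il18rap were called again, while Klra7, Cd2 and Thy1 were not.

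The duodenal libraries, scaled together with all 22 IEL libraries, are given without a test. For Itgae they lay at 954 to 1523 CPM, beside 810.3 to 1440 CPM in ileum and 1749 to 2299 CPM in jejunum on the same scale. Il12rb2 lay at 6.32 to 25.7 CPM in duodenum, 7.43 to 18.8 CPM in ileum and 35.5 to 50.03 CPM in jejunum. For these genes duodenum and ileum overlapped and the jejunum stood apart. Ly6a lay at 5.11 to 7.74 CPM in duodenum and 4.12 to 8.096 CPM in jejunum, both below the ileal 15 to 29.8 CPM. Il18rap lay at 1.05 to 1.91 CPM in duodenum, 1.29 to 2.12 CPM in jejunum and 2.57 to 6.21 CPM in ileum, so that here the ileum stood apart.

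**Figure D3:**
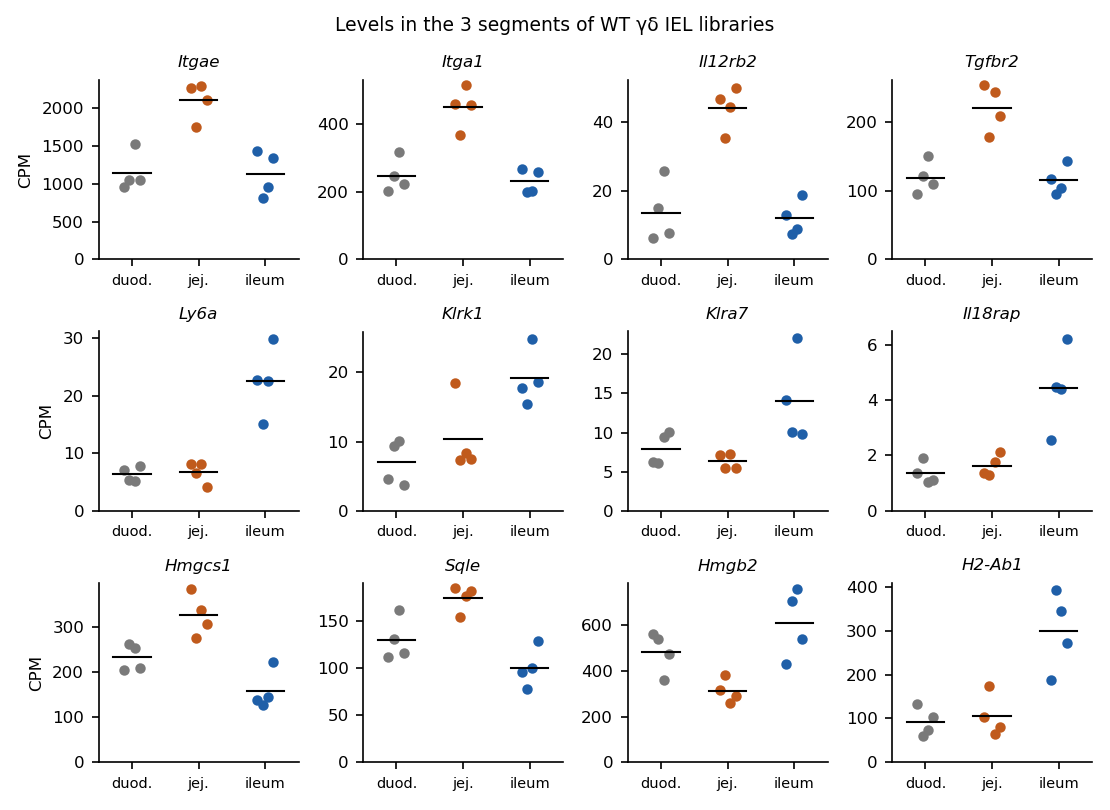
Levels of selected genes in WT γδ IEL libraries of the duodenum, jejunum and ileum, in CPM scaled over all 22 IEL libraries, each point 1 library and each bar a mean. Itgae and Il12rb2 are highest in the jejunum with duodenum and ileum overlapping, and Ly6a and Il18rap are highest in the ileum.

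Genes of cholesterol synthesis were lower in ileum in bulk, and on the same side in the cells. Of 23 tested genes 11 were lower (background 10.9%) and 0 higher, with a median log2 fold change of -0.57. They included Hmgcs1, Sqle, Lss, Cyp51, Msmo1, Sc5d and Dhcr7 of the synthesis pathway, the sterol-responsive transcription factor gene Srebf2 and its retention factor gene Insig1. Hmgcs1, an early synthase of the pathway, lay at 395, 280.1, 354 and 308 CPM in jejunum and at 143, 130.1, 148 and 225 CPM in ileum (log2 fold change -1.05 ± 0.18, adjusted p = 0.00366). Sqle, the squalene epoxidase, lay at 190.3, 157, 186 and 183 CPM in jejunum and at 98.7, 79.8, 102 and 131 CPM in ileum (log2 fold change -0.80 ± 0.15, adjusted p = 0.00419). Neither overlapped. In the cells 22 of the 23 genes had a lower ileal value (background 52.6%), with a median log2 ratio of -0.33. Hmgcs1 had 2176 ileal and 2800 jejunal UMIs, or 106 CPM (102 to 110.5) and 147 CPM (142 to 153), and Sqle had 1088 and 1236. The exception was Ebp, a sterol isomerase, with log2 values of 0.30 in bulk (not called) and 0.13 in the cells. With the length trend taken out 5 of the genes were called lower (background 5.35%) and 1 higher (background 7.82%), and Sqle was not called.

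The promoter of Hmgcs1 is shown because it holds a match to a sterol regulatory element, the kind of site bound by the factor that Srebf2 encodes, in capitals (RefSeq, GRCm38.p6, plus strand, chr13:119690101-119690350, 5′ to 3′).
Hmgcs1: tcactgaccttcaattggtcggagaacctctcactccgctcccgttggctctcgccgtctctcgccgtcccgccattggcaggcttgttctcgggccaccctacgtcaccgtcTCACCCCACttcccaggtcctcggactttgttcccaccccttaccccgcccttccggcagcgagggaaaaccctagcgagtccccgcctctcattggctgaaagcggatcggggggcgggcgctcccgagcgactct
The pattern TCACNCCAC, searched on both strands, matched in this window for 1 of 16 cholesterol genes with a promoter in the table and for 331 of 27025 genes in all (1.22%). It also matched in the Fabp6 window.

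**Figure D4:**
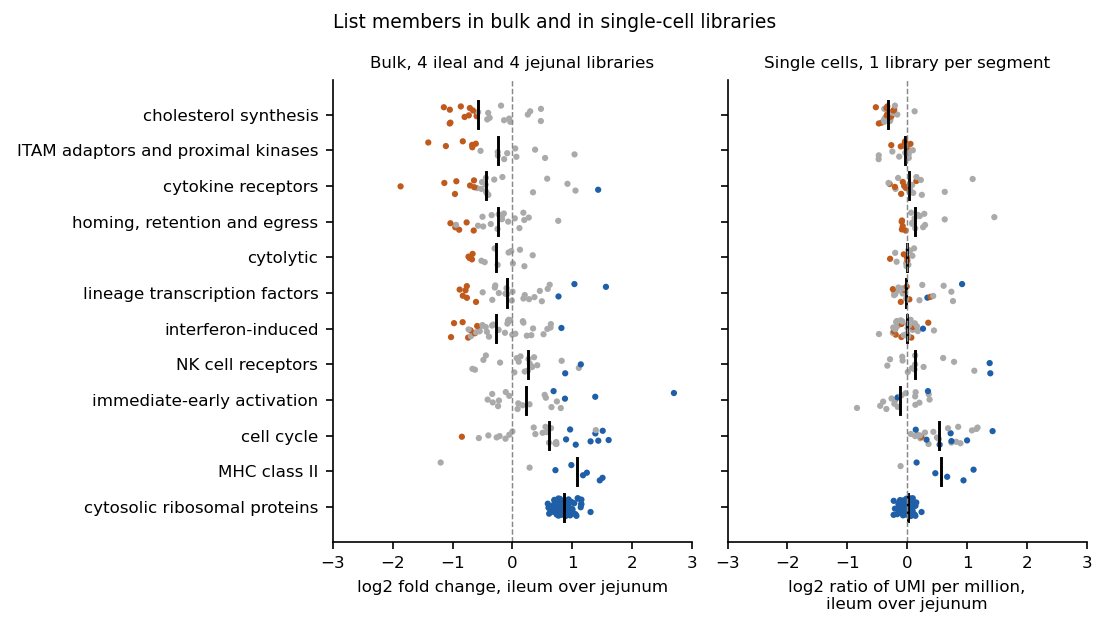
Log2 ratio of ileum over jejunum for the tested members of gene lists, in the bulk fit (left) and, for members with at least 50 UMIs in a segment, in the single-cell sums (right), with list medians as black bars and members coloured by their bulk call (blue higher, orange lower, grey not called). The cholesterol medians are -0.57 in bulk and -0.33 in the cells, and the cell cycle medians 0.60 and 0.54.

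Proliferation genes were on the higher side. Of 28 tested cell cycle genes 8 were higher (background 10.8%) and 1 lower, with a median log2 fold change of 0.60. The higher ones were Mki67, Cdk1, Birc5, Pclaf, Tyms, Stmn1, Cenpf and Hmgb2. The proliferation marker Mki67 lay at 23.6, 35.2, 22.2 and 28.6 CPM in jejunum and at 34.5, 72.7, 68.5 and 52.7 CPM in ileum, with the lowest ileal library inside the jejunal range (log2 fold change 1.06 ± 0.24, adjusted p = 0.00814). Its level in ileal IECs was 10.8 times that in ileal IELs. With the pan-epithelial covariate Mki67 was not called, as its log2 fold change of 0.55 (edgeR adjusted p = 0.0203) falls short of the 1.5-fold minimum. Hmgb2, a chromatin protein of dividing cells, lay at 326, 388, 271 and 289 CPM in jejunum and at 442, 726, 771 and 545 CPM in ileum without overlap, and its IEC level was 0.315 times the IEL level. The 1 lower gene was Mcm4, a subunit of the replicative helicase (log2 fold change -0.85 ± 0.12, adjusted p = 0.00311). In the cells all 26 genes with enough UMIs had a higher ileal value (background 47.4%), Mcm4 among them, with a median log2 ratio of 0.54. Mki67 had 297 ileal and 189 jejunal UMIs, or 14.5 CPM (12.9 to 16.2) and 9.93 CPM (8.56 to 11.4).

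Of 8 tested MHC class II genes, which present peptides to CD4 T cells, 6 were higher in ileum (background 10.8%). These were H2-Aa, H2-Ab1, H2-Eb1, Cd74, Ciita and H2-DMb1, and the list median log2 fold change was 1.08. H2-Ab1, the β chain of I-A, lay at 107, 176, 67.3 and 80.96 CPM in jejunum and at 194, 403, 351 and 277 CPM in ileum (log2 fold change 1.51 ± 0.31, adjusted p = 0.00603). The ratio of the ileal IEC level to the ileal IEL level was 0.695 for H2-Ab1 and 1.69 for H2-Aa, and with the covariate the log2 fold change of H2-Ab1 was 0.93 (edgeR adjusted p = 0.00598). The cells held 432 ileal and 252 jejunal UMIs of H2-Ab1 and 458 and 221 of H2-Aa. Of 11 heat shock genes 3 were higher (background 10.8%), Hsp90aa1, Hsp90ab1 and Hspe1. Of these Hspe1 was not called with the length trend taken out and Hsp90ab1 not with the covariate.

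Of 38 interferon-induced genes 7 were lower (Ifit1, Ifit2, Oas3, Stat2, Gbp2, Ddx58 and Cmpk2, background 10.9%), 1 was higher (Ifi27l2b) and 30 were not called. Gbp2 and Ifi27l2b were called neither with the covariate nor with the length trend taken out. Ddx58, the RNA sensor RIG-I, lay at 169, 132, 176 and 159 CPM in jejunum and at 92.7, 68.7, 71.8 and 89.9 CPM in ileum (log2 fold change -0.98 ± 0.14, adjusted p = 0.00311). The cells gave a log2 ratio of -0.09 for it and a list median of 0.00. Of 20 immediate-early genes 4 were higher (Nr4a3, Ier3, Atf3 and Nfkbia, background 10.8%) and 0 lower. In the cells 11 of 18 measured members were lower in ileum (background 52.6%), with a median log2 ratio of -0.13 and with Nr4a3 at -0.16. Ier3 and Nfkbia were not called with the length trend taken out, nor Ier3 and Atf3 with the covariate. Nfkbia, the inhibitor of NF-κB, lay at 123, 126, 116 and 110 CPM in jejunum and at 207, 225, 176 and 156 CPM in ileum (log2 fold change 0.69 ± 0.13, adjusted p = 0.00421) and had 3561 ileal and 2595 jejunal UMIs. Of 13 cytokine genes 2, Ifng and Areg, were higher (background 10.8%), and with the length trend taken out neither was called. Ifng lay at 10.9 to 24.1 CPM in jejunum and 20.2 to 37.8 CPM in ileum (log2 fold change 0.81 ± 0.26, adjusted p = 0.0354). Of 16 glycolysis genes Hk2 was higher (background 10.8%) and Slc2a3 and Hk1 were lower (background 10.9%), all 3 no longer with the covariate. In the cells 14 of the 16 were higher in ileum (background 47.4%), with a median log2 ratio of 0.13. Kit, the stem cell factor receptor, was lower (log2 fold change -1.22 ± 0.22, adjusted p = 0.00367), with a single-cell log2 ratio of 0.12. Btnl2, the butyrophilin gene disrupted in the KO line, lay at 3.84 to 9.94 CPM in jejunum and 2.52 to 3.71 CPM in ileum (log2 fold change -1.01 ± 0.32, adjusted p = 0.0347), and its IEC level was 6.74 times the IEL level. It was not called with the length trend taken out (edgeR adjusted p = 0.0542). Of 6 tested retinoic acid genes 1, Aldh1a1, was lower, and of 11 inhibitory receptors 2, Cd96 and Entpd1 (background 10.9% for both lists). With the covariate Cd96 was not called.

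Single-cell sums of epithelial transcripts followed the bulk direction for some genes and not for others. Fabp6 had 4499 UMIs in the ileal and 3 in the jejunal library, and the keratin gene Krt8 had 2069 and 360. Reg3b, an antibacterial lectin gene of the Paneth cell list, had 2647 and 108. Of the 7 genes of that list 4 were higher in the ileal cells (background 47.4%) and 3 lower (background 52.6%), with a median log2 ratio of 0.12. For several Paneth cell products the order was opposite to the bulk order, with 196 ileal and 4375 jejunal UMIs of the lysozyme gene Lyz1, 13 and 1358 of the angiogenin gene Ang4, and 12232 and 30592 of Defa24. All 6 α-defensins with enough UMIs were lower in the ileal cells (background 52.6%).

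The same contrast in Btnl2-KO mice, 3 ileal against 4 jejunal libraries that share none with the WT comparison, called 0 of 12579 genes by the edgeR quasi-likelihood test, where 152 (1.21%) had an unadjusted p under 0.05. DESeq2 called 3, all lower in ileum (Fabp1, Rbp2 and the enteroendocrine hormone gene Gip, the last named after its values were seen), and limma-voom 0. For the genes called higher in WT the median log2 fold change was 0.90 in WT and 0.18 in KO, and 930 of 1342 tested in KO lay on the same side. For the lower ones the medians were -0.77 and -0.11, with 976 of 1370 on the same side. The median log2 fold change over all genes tested in KO was -0.02. The interaction of segment with genotype called 0 of 13135 genes by edgeR and by DESeq2, with 1248 (9.5%) at an unadjusted p under 0.05 in edgeR, and limma-voom called 1561 with a higher and 949 with a lower difference in KO. The α-defensin sum ran from 124 to 27039 CPM in KO jejunum and from 15665 to 20053 CPM in KO ileum. The short-minus-long balance ran from -0.35 to 0.48 and from -0.56 to 0.20. Fabp6 lay between 0 and 33.2 CPM in KO jejunum and between 88.8 and 137 CPM in KO ileum.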

How the data were processed

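RNA of sorted γδ IELs was sequenced in bulk. The authors mapped reads to GRCm38 in ArrayStudio and deposited RSEM expected counts per gene from sense-strand exon reads; the labels name a stranded mRNA kit, while the study's methods describe a low-input kit. The deposited single-cell tables hold UMI counts per barcode, filtered here as in the study (at least 500 genes, at most 10% mitochondrial UMIs, no doublet caller). Expected counts were rounded, and 1 IEL column that matched no sample was left out. 100 of 24475 identifiers had no symbol. Genes with at least 10 counts in at least 4 libraries (3 for KO and the interaction) were tested with the edgeR 4.0.16 quasi-likelihood test on R 4.3.3 after TMM scaling, with Benjamini-Hochberg adjustment, and called at an adjusted p under 0.05 and a fold change above 1.5. The model was tested on simulated data. Alternatives were DESeq2 1.42.0, limma-voom (limma 3.58.1), other scalings and filters, a pan-epithelial covariate and leaving out each library. Scaling by library size alone and the lowess offset on GENCODE transcript length (span 0.3) were added after seeing the data, as was the ribosomal protein list. Members and lists were chosen with earlier results of these data known. Named genes were, per direction, up to 12 non-overlapping called genes of greatest change, up to 12 likewise after leaving out those more abundant in IECs, and up to 4 called genes per list by adjusted p; for lists with no call the 2 members of lowest p; and lineage genes. Others were named after their values were seen. Replicates are pools of 2 mice, so p-values measure the spread between pools. Intervals cover counting error only. Some list members are not reported here by name.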

Additional observations from a re-analysis of the deposited data

Results flagged for a closer look

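Within the groups of 4 libraries, 16 of 308 sets of values had 1 library far from the other three, about the 1 in 20 that chance gives. On the proliferation side, ileal library 1 lay low for Pclaf at 29.0 CPM and for Tyms at 34.3 CPM, where the group medians were 82.4 and 74.1 CPM. Jejunal library 2 lay low for Plcg1 at 83.3 CPM, for Ahr at 30.8 CPM and for Il6st at 60.9 CPM. Jejunal library 1 lay high for Cd2 at 16.5 CPM and for Klrk1 at 19.0 CPM, and ileal library 4 lay high for Cd38 at 293.7 CPM. Ileal library 2 held 36.9 CPM of the neurotensin gene Nts, against a group median of 1.39 CPM. Jejunal library 3 held the most red blood cell RNA, with 4.47 CPM of Alas2, 19.0 CPM of Hbb-bt and 320.4 CPM over the list. The remaining values came from libraries with few counts where the other three had none: Hoxb7 at 0.304 CPM in jejunal library 2, Gm10052 at 0.115 CPM in ileal library 4, and G6pc and Cyp2c66 at 0.0741 CPM each in ileal library 2. The causes were not tested.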

How the results depend on the processing

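No paired analysis was possible because the labels tie no ileal library to a jejunal one. The counts of 1369 higher and 1379 lower genes moved to 522 and 904 with all 22 IEL libraries in one fit, to 717 and 2585 with library size alone, to 2061 and 2214 with no minimum on the fold change, and to 2173 higher with limma-voom. The length offset left 676 lower genes. Leaving out 1 library gave 856 to 1734 higher and 998 to 1641 lower genes, and the lowest higher count came without ileal library 2. In KO mice DESeq2 called 3 lower genes, and for the interaction limma-voom called 1561 and 949. On a log scale the enterocyte ratio was 0.243 (exact permutation p = 0.0286), the mast cell ratio 0.743 (exact permutation p = 0.314) and the B cell ratio 1.12. Leaving out 1 library gave αβ T cell ratios of 0.932 to 1.67, the lowest without ileal library 2. Called genes more than 10 times as abundant in IECs numbered 63. Genes that changed sign were all uncalled. With the covariate these were Cd79b (log2 fold change 0.0473), Cd4 (-0.46), Nts (-1.12), Cd8a (0.0506) and Gzmb (0.18). Leaving out 1 library gave -0.207 to 0.00259 for Cd79b (highest without ileal library 3), -0.24 to 0.699 for Cd4 (lowest without ileal library 2) and -1.41 to 0.45 for Hbb-bt (highest without jejunal library 3). Of 131 called named genes 75 kept their call in every alternative, 95 did with the covariate and 98 with the length offset, and none reversed. The causes were not tested.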
